A study of Mus musculus with 8 samples.

Results

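The let-7 and miR-98 family was followed across small RNA libraries of 2 mouse cell lines. Its 9 members are the guide arms mmu-let-7a-5p, mmu-let-7b-5p, mmu-let-7c-5p, mmu-let-7d-5p, mmu-let-7e-5p, mmu-let-7f-5p, mmu-let-7g-5p, mmu-let-7i-5p and mmu-miR-98-5p (written below without the species prefix), taken by name from the 1978 mature miRNAs of the count tables. All 9 were listed in each of the 5 tables. The study asked how PERK, a kinase of the endoplasmic reticulum that slows translation under protein folding stress, and ATF4, a transcription factor whose synthesis rises when PERK is active, act on miRNAs while cells differentiate. Small RNA was sequenced from C2C12 myoblasts, a line of mouse muscle precursor cells that fuse into myotubes when serum is withdrawn, and from P19 mouse embryonic carcinoma cells, a pluripotent line.

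There were 8 conditions with 1 library each. In C2C12 cells a non-targeting control (shNC) and a short hairpin RNA that targets Perk (shPerk) were each sampled at day 0 and after differentiation to day 3. A second C2C12 pair carried a control labelled vector or overexpressed ATF4. By the authors' account these cells were kept in growth medium, without induced differentiation. P19 cells carried shNC or shPerk, and neither their day nor their induction state is given in the labels. All 4 C2C12 hairpin libraries, shNC included, came from cells made stable with lentivirus and selected with puromycin. The ATF4 coding sequence was carried by a vector with an EF1α promoter. No condition had a replicate, so a difference between 2 libraries had no replicate check, and the Perk and Atf4 mRNAs, which small RNA libraries do not measure, could not serve as a check of the labels. Levels are given as reads per 1000000 miRNA reads, computed here from counts (CPM) for the hairpin C2C12 libraries, which held 8800977 to 11993448 reads, and as deposited on the same scale (RPM) for the ATF4 and P19 pairs. Muscle miRNAs fixed as markers (4 miRNAs) summed to 2467 to 88480 CPM or RPM in C2C12 cells and to 34.5 and 96.9 in P19 cells, where miR-206-3p was not listed. Pluripotency miRNAs (11 miRNAs) summed to 217778 and 456092 in the P19 shNC and shPerk libraries and to at most 0.707 in the C2C12 hairpin libraries. They were not listed in the table of the ATF4 pair. 

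A miRNA guides Argonaute proteins to messenger RNAs through its seed, and members of a family that share a seed can share targets. The let-7 miRNAs accumulate as animal cells leave the pluripotent state and are known for holding down growth and stem cell factors. In pluripotent cells the RNA-binding protein LIN28 holds let-7 precursors back from maturation.

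The mature sequences show what the members share and how little separates them in a sequencing read. They were taken from RefSeq (GRCm38.p6) and are printed 5′ to 3′ with the seed, bases 2 to 8, in capitals.
let-7a-5p: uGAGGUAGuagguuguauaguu
let-7b-5p: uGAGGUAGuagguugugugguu
let-7c-5p: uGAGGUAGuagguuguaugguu
let-7d-5p: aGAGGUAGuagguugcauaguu
let-7e-5p: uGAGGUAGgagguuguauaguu
let-7f-5p: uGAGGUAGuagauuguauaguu
let-7g-5p: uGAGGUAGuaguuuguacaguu
let-7i-5p: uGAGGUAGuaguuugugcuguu
miR-98-5p: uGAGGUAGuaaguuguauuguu
All 9 had the same seed and a length of 22 bases. Counted from the 5′ end, with the base of let-7a-5p first, let-7c-5p differed from let-7a-5p by A19G, let-7e-5p by U9G and let-7f-5p by G12A. The most distant member from let-7a-5p was let-7i-5p, with G12U, A17G, U18C and A19U. Of the pairs of members, 4 were separated by a single base. The rule by which reads matching several miRNAs were assigned is not given in the sources used here, so the split of reads between such close members is uncertain. Besides the 9 members, let-7k and miR-1961 had the same bases 2 to 8 among the listed miRNAs. The first had 0.95 to 3.78 CPM or RPM in C2C12 cells and the second at most 2 reads in a library, so nearly all reads with this seed came from the 9 members.

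The family is made from 12 hairpins on 7 chromosomes of GRCm38. On chromosome 13, Mirlet7a-1 (chr13:48538179-48538272), Mirlet7f-1 and Mirlet7d lie on the minus strand in exons of the lincRNA gene 6720427I07Rik, with Mirlet7f-1 only 261 bases from Mirlet7a-1. On chromosome 15, Mirlet7c-2 and Mirlet7b (chr15:85707319-85707403, plus strand) are 621 bases apart in exons of the noncoding gene Lncppara. Mirlet7c-1 (chr16:77599657-77599750, plus strand) lies in an intron of Mir99ahg, 656 bases from Mir99a. Mirlet7e (chr17:17830352-17830444, plus strand) lies in an intron of Spaca6, 367 bases from Mir125a, and Mirlet7a-2 is on chromosome 9 between Mir100 and Mir125b-1. Mirlet7g (chr9:106178840-106178927, plus strand) is in an intron of Wdr82. Mirlet7i (chr10:122985640-122985724, minus strand) overlaps an exon of D630033A02Rik. Mirlet7f-2 and Mir98 (chrX:151913214-151913321, plus strand) share an intron of Huwe1. Because let-7a-5p, let-7c-5p and let-7f-5p are each made at 2 places, a read of these guide arms does not tell which hairpin it came from.

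LIN28 is known to bind GGAG in the loop of let-7 precursors, so the last 14 loop bases before the 3p arm are shown for 6 hairpins that differ in it, with GGAG in capitals.
Mirlet7e: acccgaGGAGauca
Mirlet7g: cgguacaGGAGaua
Mirlet7a-1: ccacugGGAGauaa
Mirlet7b: cccuccgaagauaa
Mirlet7c-2: ccgcucugcgguaa
Mir98: caguaagaagauaa
The letters GGAG, searched on the RNA strand alone, were in the loop of 9 of the 12 hairpins and absent from those of Mirlet7b, Mirlet7c-2 and Mir98. At the place where Mirlet7a-1 has GGAG, the loops of Mirlet7b and Mir98 have gaag, which the search did not count. Whether LIN28 binds that form was not examined. Of all 1005 mouse hairpins in the reference table, 44.5% held GGAG somewhere. The match is a description of the letters, binding was not measured, and the part of the motif in any value below was not tested.

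The family made up a large part of the miRNAs of C2C12 cells and a very small part of those of P19 cells. Summed over its 9 members it took 19.2% of miRNA reads in C2C12 shNC day 0 (95% Clopper-Pearson interval 19.178 to 19.224), 21.1% in shPerk day 0, 16.9% in shNC day 3, 18.4% in shPerk day 3, 20.2% in vector and 20.6% in ATF4 cells. In P19 it took 0.0913% in shNC and 0.0823% in shPerk. All 6 C2C12 libraries thus lay far above both P19 libraries, by 185.6-fold from the lowest C2C12 to the highest P19 library and by 255.9-fold from the highest to the lowest. Such intervals cover counting error only, because the reads were amplified by PCR and carry no molecular identifiers. The highest member stood in 2nd or 3rd place among all miRNAs of each C2C12 library, and in place 207 and 139 in P19 shNC and shPerk. In bulk samples of this kind, fewer cells holding a miRNA and less of it per cell cannot be told apart. The P19 libraries were also deposited in a table of their own, so cell line and table cannot be told apart.

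**Figure D1:**
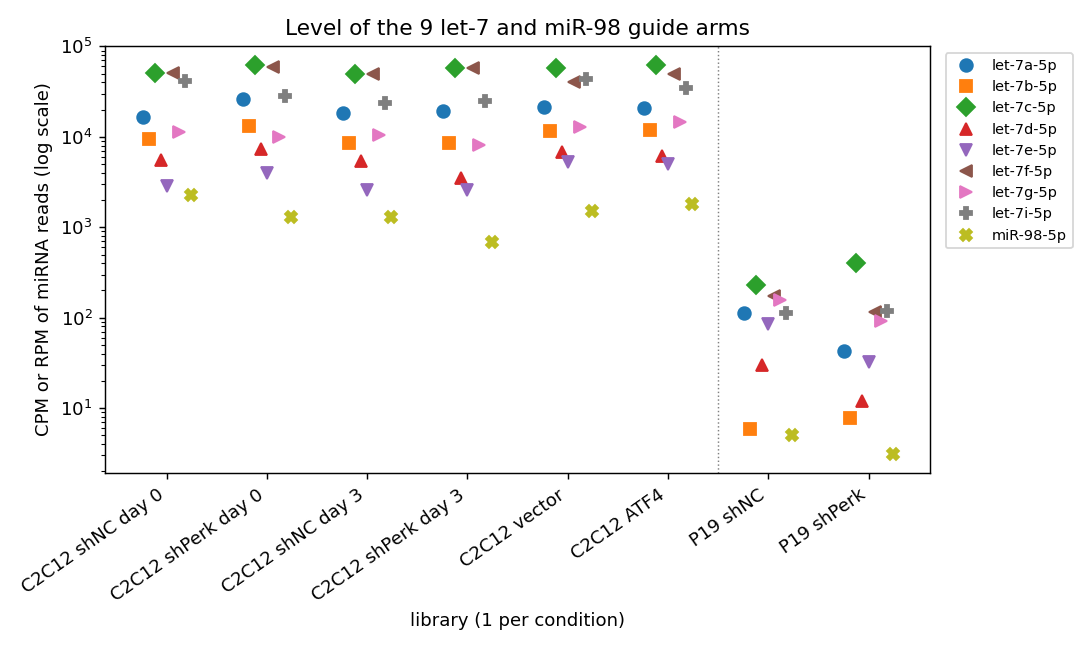
Level of each member in each of the 8 libraries, in CPM or RPM of miRNA reads on a log scale, with 1 point per library. In the 6 C2C12 libraries the members lie between 688.9 and 61784, and in the 2 P19 libraries, right of the dotted line, between 3.14 and 398.9.

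Within C2C12 cells the members kept nearly one order of levels. In first place was let-7c-5p, with 51311, 61568, 49641 and 58241 CPM in shNC day 0, shPerk day 0, shNC day 3 and shPerk day 3, and 57836 and 61784 RPM in vector and ATF4. The next was let-7f-5p, with 50763, 59172, 49632 and 58233 CPM in the same order and 40316 and 49115 RPM. Then came let-7i-5p, with 41634, 28217, 23637 and 24950 CPM and 43709 and 34711 RPM. The first of these was above the second in 6 of 6 C2C12 libraries, but at day 3 the counting intervals of let-7c-5p and let-7f-5p overlapped in both hairpin lines, and let-7i-5p was above let-7f-5p in the vector library.

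In the middle stood let-7a-5p, with 16615, 25985, 18183 and 19300 CPM and 21609 and 20928 RPM. Below it, let-7g-5p had 11451, 9976, 10549 and 8104 CPM and 12914 and 14718 RPM. Close to it, let-7b-5p had 9489, 13068, 8492 and 8652 CPM and 11682 and 11809 RPM. These last members crossed, let-7g-5p being above let-7b-5p in 4 of 6 libraries. At the lower end, let-7d-5p had 5559, 7404, 5387 and 3548 CPM and 6844 and 6183 RPM. Its neighbour let-7e-5p had 2892, 3960, 2615 and 2608 CPM and 5207 and 4977 RPM. In last place, miR-98-5p had 2299, 1296, 1311 and 688.9 CPM and 1527 and 1787 RPM. Of the 8 pairs of neighbours in this order, 5 had overlapping ranges over the 6 C2C12 libraries; let-7a-5p over let-7g-5p, let-7b-5p over let-7d-5p and let-7e-5p over miR-98-5p did not overlap.

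All 9 members were lower in both P19 libraries than in all 6 C2C12 libraries. Among the 490 miRNAs listed in every table, 22.4% had ranges apart in this direction and 31.6% in the other. With P19 shNC set against C2C12 shNC day 0, all 9 were lower by more than log2 1, as were 25.5% of the 490. The median log2 difference of the members was -7.79, against 0.50 for all 490 miRNAs, and it was -7.85 against the vector library. With 1 library per condition no test was made.

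The size of the gap differed widely between members. In P19 shNC and shPerk, let-7b-5p had 5.81 and 7.85 RPM, which the smallest steps of the RPM values put at about 46 and 35 reads. These read numbers are estimates. Of the values checked, 94.6% and 97.0% came out as whole reads, short of the limit set for recovering depth. The level of let-7b-5p in C2C12 shNC day 0 was 1633-fold that in P19 shNC. For miR-98-5p, with 5.05 and 3.14 RPM in P19 (about 40 and 14 reads), the fold was 455. In this pair of libraries these members, whose hairpins have gaag in place of GGAG in the loop, were the furthest apart of the 9. Against the vector library miR-98-5p (log2 difference -8.24) came after let-7i-5p (-8.59), while let-7b-5p (-10.97) was again first. By the lowest C2C12 over the highest P19 level, miR-98-5p (136-fold) came after let-7f-5p (229-fold), let-7i-5p (198-fold) and let-7a-5p (149-fold). In every C2C12 library let-7b-5p had been more abundant than let-7d-5p and let-7e-5p. In the shNC pair, next came let-7i-5p (113.6 and 119.6 RPM in P19) at 367-fold, let-7f-5p (175.7 and 114.7) at 289-fold and let-7c-5p (231.3 and 398.9), made from a hairpin with GGAG in the loop and from one without, at 222-fold. Both let-7d-5p (29.7 and 12.1 RPM) at 187-fold and let-7a-5p (111.5 and 43.1 RPM) at 149-fold were lower than that. The smallest gaps were those of let-7g-5p (155.3 and 91.5 RPM) at 73.8-fold and of let-7e-5p (85.3 and 32.1 RPM) at 33.9-fold. The ratio of let-7e-5p to let-7a-5p was 0.135 to 0.241 in C2C12 and 0.764 and 0.745 in P19. In the opposite direction, the ratio of let-7b-5p to let-7a-5p was 0.448 to 0.571 in C2C12 and 0.0521 and 0.182 in P19.

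The miRNAs that share loci with the family did not all show the same gap. miR-125a-5p, from the hairpin next to Mirlet7e, had 3759 and 1611 RPM in P19 shNC and shPerk and 5561 to 10034 CPM or RPM in C2C12, a 1.48-fold difference between the shNC libraries. For miR-99b-5p, known to come from the same cluster, P19 had 10488 and 5979 RPM and C2C12 8219 to 29115, so the ranges overlapped. The ratio of let-7e-5p to miR-125a-5p was therefore 0.395 to 0.637 in C2C12 and 0.0227 and 0.0199 in P19, and the ratio to miR-99b-5p was 0.179 to 0.360 and 0.00813 and 0.00537. Hence let-7e-5p, the member with the smallest gap, was still low in P19 relative to both of its neighbours. The other partners were lower in P19 with gaps smaller than those of the members but let-7e-5p. C2C12 shNC day 0 was 24.6-fold above P19 shNC for miR-99a-5p, 36.0-fold for miR-100-5p and 27.3-fold for miR-125b-5p. 

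**Figure D2:**
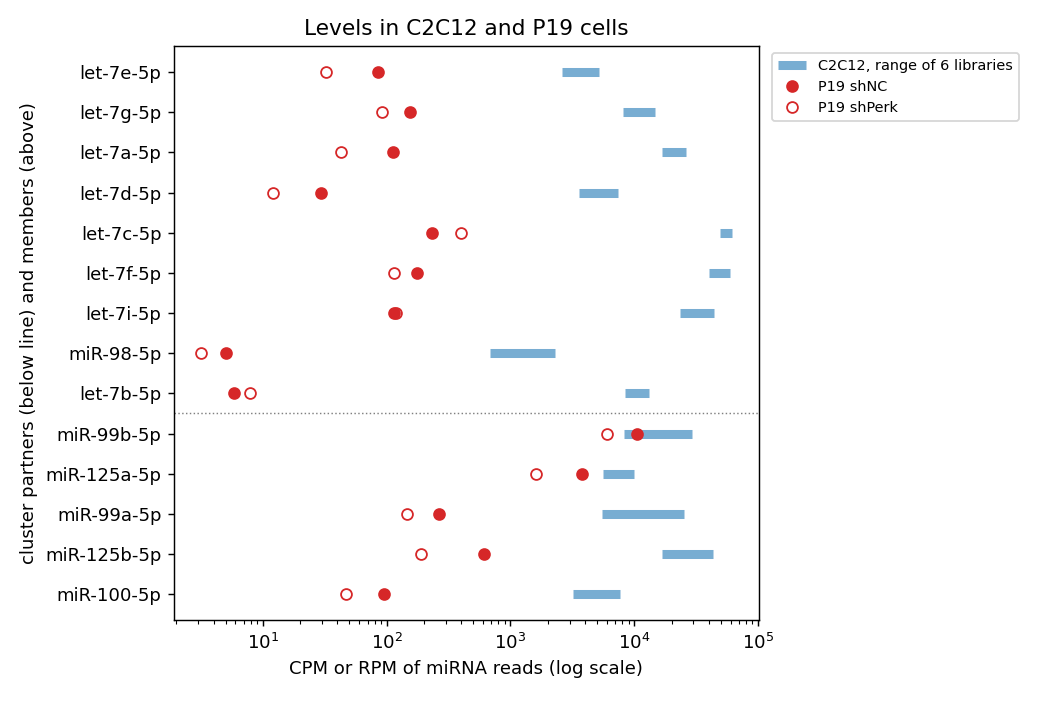
Levels of the 9 members (above the dotted line) and of 5 miRNAs from the same loci (below it), in CPM or RPM of miRNA reads on a log scale. Bars span the 6 C2C12 libraries and circles are the P19 shNC (filled) and shPerk (open) libraries; all members have circles left of their bar, while for miR-99b-5p the filled circle lies on it.

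The 3p arms, the strands that are mostly discarded, were also few in P19. The 12 arms hold 11 distinct mature sequences, since those of let-7a-1-3p and let-7c-2-3p are identical and carried identical values. Counted once each, all 11 were listed in the C2C12 libraries, where they summed to 2640 to 4940 CPM or RPM. In P19, 3 of 11 were listed and summed to 17.6 and 15.9 RPM in shNC and shPerk. The guide arm was well above the 3p arm of the same hairpin: let-7d-5p was 6.87 to 8.88 times let-7d-3p in C2C12 and 3.92 and 3.38 times in P19.

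The make-up of the family differed between libraries, for some members more than for others. As a percent of the family, let-7c-5p was 26.7, 29.2, 29.3 and 31.6 in the C2C12 hairpin libraries (shNC day 0, shPerk day 0, shNC day 3, shPerk day 3), 28.7 and 29.99 in vector and ATF4, and 25.3 and 48.5 in P19 shNC and shPerk. By contrast, let-7i-5p held 21.7% in C2C12 shNC day 0 and 21.7% in vector, but 13.4, 13.95 and 13.5% in shPerk day 0, shNC day 3 and shPerk day 3. In P19 shNC, let-7g-5p (17.0%) and let-7e-5p (9.34%) held more of the family than in any C2C12 library, where they reached 7.14% and 2.58%. For let-7b-5p the order was the other way, with 4.69 to 6.20% in C2C12 and 0.636 and 0.954% in P19.

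**Figure D3:**
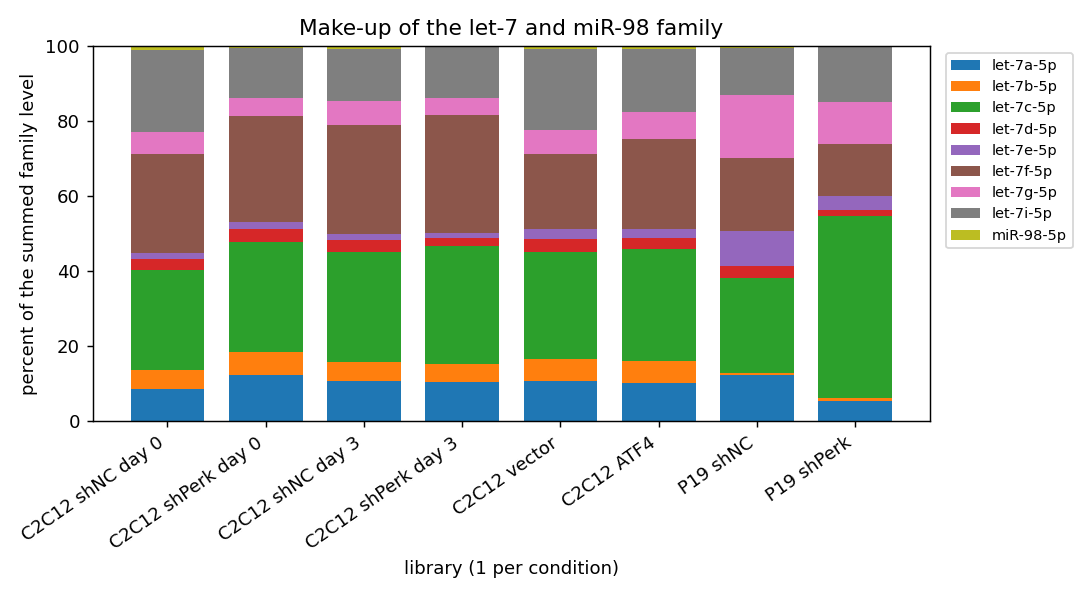
Percent of the summed family level held by each member in each of the 8 libraries, stacked to the whole. The let-7c-5p segment is 26.7 to 31.6 in C2C12 and 48.5 in P19 shPerk, and the let-7i-5p segment is 21.7 in C2C12 shNC day 0 and vector and 13.4 to 16.8 in the other C2C12 libraries.

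PERK knockdown in C2C12 cells was compared first at day 0, before differentiation. No member passed the limit of log2 1 in either direction, where 35.9% of the 602 miRNAs measured did. That background takes in all miRNAs with at least 1 CPM in 1 library. Most of them were less abundant than the members, whose lowest place was 55 in shNC and 67 in shPerk. Shares past the limit were not compared at like levels, and those of the other C2C12 comparisons have the same limit. After TMM scaling, 6 members were higher and 3 lower in shPerk. The median was 0.40, against -0.06 for all miRNAs, and 0.18 with a stricter filter of 10 CPM. From the levels above, let-7a-5p had the highest log2 fold change, 0.78 (counting interval 0.77 to 0.79), and miR-98-5p the lowest, -0.69 (-0.73 to -0.66). The other members higher in shPerk were let-7b-5p at 0.60, let-7e-5p at 0.59, let-7d-5p at 0.55, let-7c-5p at 0.40 and let-7f-5p at 0.35. Below 0 lay let-7i-5p at -0.43 and let-7g-5p at -0.07. All 9 signs were the same under 4 scalings.

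At day 3 again none of the 9 members passed the limit, against 44.9% of 575 miRNAs. The median of the members was 0.36, against 0.01 for all, and it was 0.03 when libraries were scaled by their total reads, which also set the median of all miRNAs at -0.32. Highest were let-7c-5p and let-7f-5p, both at 0.56, and lowest was miR-98-5p at -0.60 (-0.64 to -0.55). For the members but let-7i-5p and let-7d-5p, the effect at day 3 minus that at day 0 was between -0.36 and 0.21 on the log2 scale. The exceptions were let-7i-5p, which was 0.84 higher in the log2 effect of knockdown at day 3 than at day 0 (counting interval 0.83 to 0.85), and let-7d-5p, which was 0.82 lower (difference -0.82, -0.84 to -0.79). These are values after TMM scaling, and their intervals leave out the choice of scaling. With total reads the effects at day 0 and day 3 were -0.56 and 0.08 for let-7i-5p and 0.41 and -0.60 for let-7d-5p. In levels, let-7i-5p went from 41634 CPM in shNC to 28217 in shPerk at day 0 and from 23637 to 24950 at day 3. For let-7d-5p the pairs were 5559 and 7404 CPM at day 0, and 5387 and 3548 at day 3. The difference between days had no test, since each cell of the design held 1 library.

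The hairpin libraries also allowed a fit over both days, with day and hairpin as terms, in which the difference between the days served as the spread (1 residual degree of freedom per miRNA, common biological coefficient of variation 0.309). To this edgeR added 3.95 prior degrees of freedom, so much of the spread used for a miRNA was drawn from all the miRNAs. None of the 9 members was called by edgeR's quasi-likelihood test at an adjusted p under 0.05, where 10.7% of 625 miRNAs were, and none had an unadjusted p under 0.05, where 30.9% had. The largest effect was that of miR-98-5p, -0.66 ± 0.30 (SE; 95% interval -1.43 to 0.11; edgeR adjusted p = 0.22, and 0.15 to 0.50 over the alternatives). It was lower in shPerk on both days under all 4 scalings. For let-7a-5p the fit gave 0.58 ± 0.28 (SE; -0.14 to 1.30; edgeR adjusted p = 0.24, and 0.24 to 0.45 over the alternatives). A miss of the threshold in so small a design does not show that the levels were equal. The intervals of miR-98-5p and let-7a-5p each held changes of over 2-fold.

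One partner, miR-99a-5p, encoded 656 bases from Mirlet7c-1, had 6571, 9120, 5466 and 25112 CPM in shNC day 0, shPerk day 0, shNC day 3 and shPerk day 3. The last library was thus far above the other 3. Its log2 fold change with knockdown was 0.61 at day 0 and 2.53 at day 3, while let-7c-5p, of which an unknown part comes from Mirlet7c-2, had 0.40 and 0.56. Over both days the effect on miR-99a-5p was 1.55 ± 0.54 (SE; edgeR adjusted p = 0.13, and 0.0012 to 0.13 over the alternatives, with DESeq2 at 0.015). It was 1 of 5 partners past the fold limit at day 3, against 44.9% of all miRNAs. At day 0, where 35.9% passed, 0 of 5 did, with miR-125a-5p at 0.98, and at 1.04 with median of ratios scaling. Among the 3p arms, let-7g-3p passed at day 0, with 20 reads in shNC and 2 in shPerk (log2 fold change -2.76, counting interval -5.97 to -0.78). At day 3, 0 of the 11 measured entries of the 3p arm list passed, let-7g-3p being below the filter, against 44.9% of all miRNAs. With total reads let-7i-3p passed (-1.05). For day 3 against day 0, miR-99a-5p was 1 of 5 partners past the limit in shPerk, at 1.82, against 33.9% of all miRNAs. In shNC 0 of 5 partners passed, against 29.0%. After TMM scaling no 3p arm passed in either line. In shPerk the 11 measured entries of the 3p arm list were all below 0, with a median of -0.55. These entries hold the shared sequence of let-7a-1-3p and let-7c-2-3p under both names. They leave out let-7g-3p, which was below the 1 CPM filter, with 2 reads at day 0 and 5 at day 3. With total reads let-7e-3p (-1.33), let-7b-3p (-1.27) and let-7c-1-3p (-1.21) passed, the first 2 of these also with upper quartile scaling (-1.09 and -1.02). Of all 573 miRNAs, 161 were past the limit downward with total reads and 120 with upper quartile scaling. In shNC let-7g-3p passed with total reads (-1.07), as did 140 of 593 miRNAs downward.

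Differentiation was compared as day 3 against day 0 in each hairpin line. In shNC cells 0 of 9 members passed the limit, against 29.0% of 593 miRNAs, and the median was 0.15, against -0.04 for all. Both let-7i-5p and miR-98-5p were lower at day 3, with log2 fold changes of -0.55 and -0.55, and let-7a-5p was higher at 0.40. These 3 members kept their sign under all 4 scalings, while the other 6, at 0.11 to 0.23, changed sign with the scaling. In shPerk cells 0 of 9 passed, against 33.9% of 573, and the median was -0.07, against -0.05. The lowest were let-7d-5p at -0.70 and miR-98-5p at -0.55. These were lower under all 4 scalings, as were let-7b-5p and let-7e-5p, both at -0.24, and let-7a-5p at -0.07. The other 4 members changed sign with the scaling. With total reads let-7d-5p passed the limit at -1.06. The summed level of the muscle markers was 19165 CPM at day 0 and 88480 at day 3 in shNC and 3839 and 24312 in shPerk. Over both lines none of the 9 members was called by edgeR's quasi-likelihood test, nor were any of the 625 miRNAs (0.0%), of which 19% had an unadjusted p under 0.05; DESeq2 called 35 miRNAs and no member. For miR-98-5p the fit gave -0.51 ± 0.30 (SE; edgeR adjusted p = 0.39, and 0.16 to 0.84 over the alternatives).

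ATF4 overexpression was compared with the vector control. No member passed the limit, against 23.5% of 605 miRNAs. The log2 fold changes ran from -0.27 for let-7i-5p to 0.35 for let-7f-5p, with a median of 0.08 against -0.0039 for all. Of the 9 members, let-7i-5p, let-7d-5p and let-7e-5p were at or below 0 under all 4 scalings, and the other 6 changed sign with the scaling. The family share was 20.2 and 20.6%. Of the 5 partners and 12 3p arms, 0 passed, except let-7i-3p with upper quartile scaling (-0.82 after TMM and -1.20).

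PERK knockdown in P19 cells gave the widest spread among the members. Past the limit were 2 of 9, let-7c-5p at 1.39 and let-7b-5p at 1.04, both higher in shPerk, where 35.3% of 696 miRNAs passed in either direction and 17.7% were higher. On the other side lay let-7e-5p at -0.80, let-7a-5p at -0.77 and let-7d-5p at -0.69. Between them were let-7i-5p at 0.68 and let-7f-5p, miR-98-5p and let-7g-5p at -0.01 to -0.16, of which let-7f-5p changed sign with the scaling. The let-7b-5p value rests on 5.81 and 7.85 RPM in shNC and shPerk, about 46 and 35 reads by the estimate above. That of miR-98-5p rests on about 40 and 14 reads. No counting interval was computed for the RPM pairs. Which members passed also depended on the scaling. With total reads, let-7c-5p (0.79) and let-7b-5p (0.43) did not pass, and let-7e-5p (-1.41), let-7a-5p (-1.37) and let-7d-5p (-1.29) did; this scaling set the median of all 696 miRNAs at -0.65. The pluripotency markers took 217778 RPM in shNC and 456092 in shPerk, and their part in these values was not tested. A ratio within a library needs no scaling. The ratio of let-7c-5p to let-7a-5p was 2.07 in P19 shNC and 9.26 in P19 shPerk, against 2.37 to 3.09 in the 6 C2C12 libraries. The ratio of let-7d-5p to let-7a-5p, which share a cluster, was 0.266 and 0.281. Of the 5 partners, miR-125b-5p passed at -1.07, with 607.8 RPM in shNC and 189.8 in shPerk, and with total reads miR-125a-5p (-1.22) and miR-100-5p (-1.03) passed too. Of the 4 listed 3p arms, let-7a-1-3p and let-7c-2-3p passed, both at 1.26 and with 6.82 and 10.8 RPM, being the same sequence. With total reads they did not pass, and let-7d-3p (-1.08) and let-7e-3p (-1.01) did. With 1 library of each kind these are differences between libraries.

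**Figure D4:**
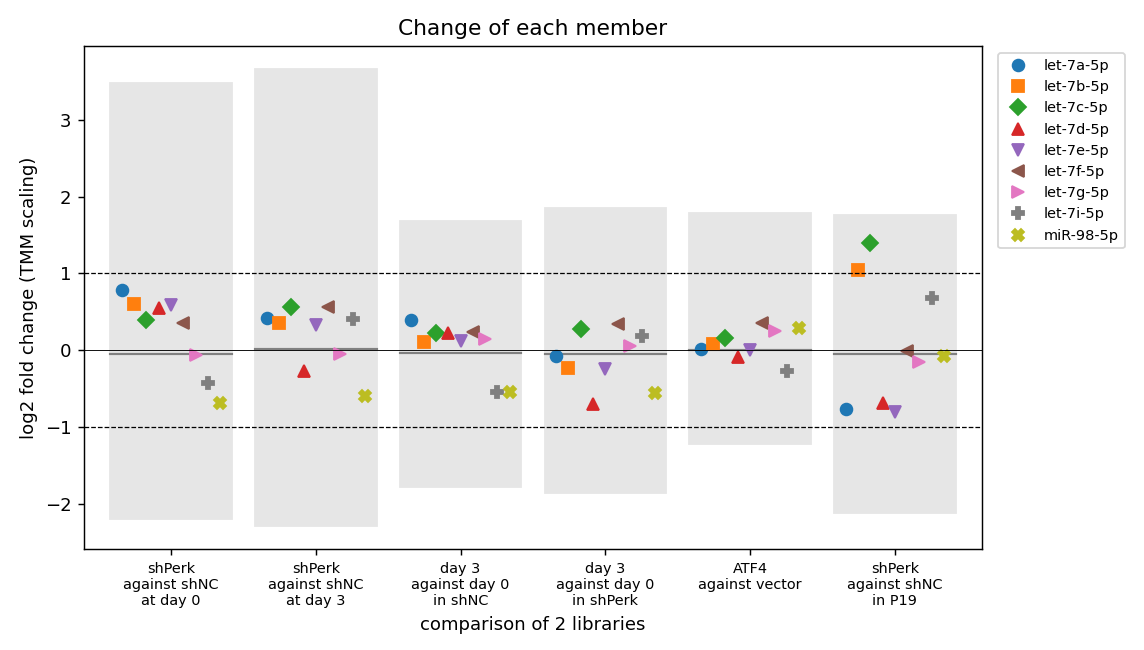
Log2 fold change of each member after TMM scaling in 6 comparisons of 2 libraries. Grey boxes span the 5th to 95th percentile of all miRNAs, grey lines their median, and dashed lines the limit of log2 1; under this scaling members pass it in P19 alone, where let-7c-5p is at 1.39 and let-7b-5p at 1.04.

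By likeness of profile over all 8 libraries (Pearson's r of log2 of the level plus 1 with the summed family), the nearest of 413 miRNAs were let-7j (0.999), miR-199a-5p (0.998), miR-21a-5p (0.998), miR-214-3p (0.996) and miR-199b-3p (0.996). The 8 points fall into the 2 cell lines, so r describes the gap between them, and 11.6% of the miRNAs had an r above 0.9. The level of let-7j, whose bases 2 to 8 differ from the family seed by G8U, was 792.0 to 1274 CPM or RPM in C2C12 and 1.89 and 1.12 RPM in P19.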

How the data were processed

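Small RNA from 8 cell samples was sequenced, 1 library each. The authors had linkers ligated to both ends, the product reverse-transcribed, amplified and gel-selected, and reads aligned with bowtie; labels name mm10 and GRCm38. For the C2C12 hairpin libraries the deposited values are raw counts per mature miRNA. For the ATF4 and P19 pairs the authors deposited RPM, and total depth is not given in the sources used here. Columns of fold changes and p-values by the authors were not used.

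Pairs were scaled by TMM in edgeR 4.0.16 (R 4.3.3; prior count 0.125; at least 1 CPM in 1 library), or by TMM of RPM values, with 0 set to 1 RPM. A call was a log2 fold change past 1. The 4 count libraries were fitted with day and hairpin by edgeR's quasi-likelihood test with Benjamini-Hochberg adjustment over all miRNAs; p-values measure the spread between these libraries alone. DESeq2 1.42.0 was an alternative. Scripts were tested on simulated data. Intervals are at 95%, by Clopper-Pearson for shares and for fold changes of a pair. Those of the differences between days are normal approximations from the read counts, and those of the fit use the t distribution. All 9 members were named, the listed partners and 3p arms where past the limit (otherwise the most abundant), and the 5 most alike miRNAs. The other partners and 3p arms printed were chosen after their values were seen. The members and lists were chosen with earlier results of these data known.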

Additional observations from a re-analysis of the deposited data

Results flagged for a closer look

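Listed here are members whose fold change had opposite signs under all 4 scalings in 2 comparisons of the same kind, either knockdown or differentiation. They are given as differences of log2 fold changes. No difference was tested, since each condition had 1 library. Some members, such as let-7d-5p, also had opposite signs in comparisons of unlike kind, such as knockdown at day 0 and ATF4 overexpression. Those are not listed. Between the knockdown at day 0 and at day 3 in C2C12, let-7d-5p differed by -0.82 and let-7i-5p by 0.84. Between the knockdown in C2C12 at day 0 and in P19, let-7a-5p differed by -1.55, let-7d-5p by -1.23, let-7e-5p by -1.39 and let-7i-5p by 1.11. Between the knockdown in C2C12 at day 3 and in P19, let-7a-5p differed by -1.19. Between differentiation in shNC and in shPerk cells, let-7a-5p differed by -0.47. The comparisons within C2C12 are made from the same 4 libraries, so that these differences are not independent.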

How the results depend on the processing

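With no replicates, values separate libraries and not conditions, and reads of members that differ by 1 base may have been misassigned. No paired analysis was possible because each condition had 1 library and no replicate numbers to pair; the fit over both days does compare the hairpins within each day. The count of members past the limit stayed at 0 in all C2C12 comparisons under every alternative but 1: day 3 against day 0 in shPerk with total reads (1, let-7d-5p). In P19 it was 2, and 1 under upper quartile scaling, under a 10 RPM filter, which removed let-7b-5p and miR-98-5p, and with a pseudocount of 1 RPM. With total reads different members passed in P19, all lower in shPerk: let-7e-5p (-1.41), let-7a-5p (-1.37) and let-7d-5p (-1.29). Under that scaling let-7c-5p (0.79) and let-7b-5p (0.43) did not pass. Medians moved as follows; the cause was not tested. For total reads, median of ratios, upper quartile, no filter and the 10 CPM filter, knockdown at day 0 gave 0.26, 0.45, 0.38, 0.42 and 0.18, and day 3 against day 0 in shNC gave -0.12, 0.19, 0.035, 0.24 and 0.012. For total reads, upper quartile, no filter and 10 CPM, knockdown at day 3 gave 0.027, 0.25, 0.29 and 0.27. For total reads, median of ratios, upper quartile and no filter, day 3 against day 0 in shPerk gave -0.43, -0.025, -0.19 and 0.018. For ATF4, total reads, median of ratios, upper quartile and 10 RPM gave 0.016, 0.067, -0.30 and -0.0083. Upper quartile scaling set the median of all miRNAs in the ATF4 comparison at -0.38, and total reads set it at -0.30 and -0.40 for differentiation in shNC and shPerk and at -0.19 for knockdown at day 0. Calls split into higher and lower then went from 88 and 54 to 53 and 124 (ATF4), and with total reads from 74 and 98 to 51 and 140 (differentiation in shNC), from 97 and 97 to 58 and 161 (in shPerk), from 126 and 132 to 93 and 166 (knockdown at day 3) and from 123 and 123 to 46 and 247 (P19). P19 against C2C12 gave -7.85 with the vector library and -7.61 with upper quartile scaling. Without miR-21a-5p in the total, the family share was 26.0, 27.0, 20.7, 23.4, 25.5 and 25.6% in C2C12 and 0.0918 and 0.0827% in P19. In the fit over both days, miRNAs called for knockdown were 67, against 103 with DESeq2 and 144 (median of ratios), 104 (total reads), 152 (upper quartile) and 129 (no filter) with edgeR, and for differentiation 0, against 35, 54, 10, 81 and 42; no member was called in any.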

Other observations

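The read counts of let-7c-5p and let-7f-5p, which are encoded on different chromosomes, were nearly equal at day 3 in both hairpin lines. They were 595368 and 595256 in shNC and 549106 and 549037 in shPerk, that is 112 and 69 reads apart. At day 0 they differed by 6200 and 21089 reads in shNC and shPerk. In the RPM tables the ratio of let-7c-5p to let-7f-5p was 1.43 and 1.26 in vector and ATF4 and 1.32 and 3.48 in P19 shNC and shPerk.

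The ratio of let-7i-5p to let-7a-5p spanned a like range in both lines. It was 2.51, 1.09, 1.30 and 1.29 in C2C12 shNC day 0, shPerk day 0, shNC day 3 and shPerk day 3, 2.02 and 1.66 in vector and ATF4, and 1.02 and 2.78 in P19 shNC and shPerk. Knockdown thus went with a lower ratio in C2C12 at day 0 and with a higher one in P19, with 1 library on each side.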
